A study of Homo sapiens with 4 samples.

Results

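SKLMS1 is a leiomyosarcoma cell line, set here against 3 other lines of the same tumour type, RKN, SKN and SKUT1. Leiomyosarcomas are cancers with features of smooth muscle. Each line gave 1 library of polyadenylated RNA from an untreated culture in the same medium with serum, so SKLMS1 is 1 sample of 4 and each line stands for itself, not for its tumour type. No replicate exists for any line. Differences are therefore sizes, and the spread between cultures of a line was not measured. The table held 23577 usable genes, of which 13713 reached an FPKM (fragment counts scaled for transcript length and library size) of 1 or more in at least 1 line and were compared.

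For every compared gene the level in SKLMS1 was taken as log2(FPKM + 1), and its difference from the mean of RKN, SKN and SKUT1 on that scale is called the difference throughout. A stricter reading asked whether SKLMS1 lay at least 2-fold above the highest, or at least 2-fold below the lowest, of the 3 other lines. On this reading 541 genes (3.95% of those compared) stood above every other line and 231 genes (1.68%) stood below every other line. By the mean of the others, 1472 genes (10.7%) stood 2-fold or more higher in SKLMS1 and 1348 (9.83%) stood 2-fold or more lower. The median difference over all compared genes was -0.06. Of the compared genes, 399 passed the level filter only through SKLMS1, so they had to be higher there, and the counts of lists with many such genes are given with that number. A value of 0 can be a failed estimate in such files (RPS28, which codes for a component of every ribosome, is listed at 0 in SKUT1), so a gene at 0 is only said to be listed there and gets no fold. Near the threshold the calls turn on small gaps. NGFRAP1, just inside, was 327 FPKM in SKLMS1, against 159 in RKN, 136 in SKN and 163 in SKUT1, and UCP2, just outside, was 58.6 FPKM in SKLMS1, against 28.9 in RKN, 17.7 in SKN and 0.851 in SKUT1.

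Low values fall in steps of single reads, and these placed the libraries at about 30700000 reads in SKLMS1, against 33600000 in RKN, 25200000 in SKN and 24400000 in SKUT1. At that depth a single read over 2 kb of transcript equalled 0.0181 FPKM in SKLMS1, against 0.0165 to 0.0228 FPKM in the other lines. In RNA from whole cultures, more cells with a transcript and more transcript per cell cannot be told apart. The same reading gave 663 genes above and 711 below for RKN, 514 and 248 for SKN, and 1366 and 584 for SKUT1. SKLMS1 lay closest to SKN, with 23.6% of compared genes at least 2-fold apart, then RKN with 29.2% and SKUT1 with 33.2%.

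The 4 genes used as working markers of the line were chosen with their levels in these libraries known, so the values describe that choice. CD24, a small glycosylated surface protein, stood at 1079 FPKM in SKLMS1, against 1.16 in RKN, 17.1 in SKN and 1.65 in SKUT1. EEF1A2, the muscle and neuron form of translation elongation factor 1A, was 343 FPKM in SKLMS1, against 5.62 in RKN, 1.88 in SKN and 0.340 in SKUT1. KCNIP1, a calcium-binding partner of potassium channels, was 154 FPKM in SKLMS1, against 0.0456 in RKN, and listed as 0 in SKN and SKUT1, and IL32, a secreted inflammatory protein, was 151 FPKM in SKLMS1, against 3.26 in RKN, 0.368 in SKN and 0.364 in SKUT1. All 4 were far above the range of the other lines, with differences of 7.85 for CD24, 6.87 for EEF1A2 and 6.25 for IL32 on the log2 scale. EEF1A2 shares much of its sequence with EEF1A1, and how the authors divided reads between them was not stated. The smooth muscle label of the line was checked on 10 defining genes, whose FPKM summed to 912 in SKLMS1, against 206 in RKN, 110.2 in SKN and 6345 in SKUT1. Of the 10, 8 reached FPKM 1 in SKLMS1, against 6 in RKN, 5 in SKN and 9 in SKUT1. TAGLN was 531 FPKM in SKLMS1, against 45.5 in RKN, 5.82 in SKN and 3816 in SKUT1. MYH11, the smooth muscle myosin heavy chain, was 0.415 FPKM in SKLMS1, against 0.268 in RKN, 0.216 in SKN and 1.15 in SKUT1. DES, desmin, was 0.191 FPKM in SKLMS1, against 1.10 in RKN, 0.347 in SKN and 0.660 in SKUT1. These last genes were under FPKM 1 in SKLMS1 and low in all 4 lines. Defining genes of endothelium, blood and skeletal muscle summed to 0.126, 1.10 and 0.293 FPKM in SKLMS1, each with no member at FPKM 1.

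The list with the highest share of genes above every other line was one of another organ. Kidney tubule cells are polarised epithelial cells that reclaim salts and solutes, under transcription factors that include PAX8, which also acts in the Mullerian duct, from which the uterus forms. A list of 44 kidney tubule genes was read, and 25 of them were compared. Of the 25, 11 stood above every other line and none stood below, with a median difference of 1.11 beside -0.06 for all genes. As 12 of the 25 passed the filter only through SKLMS1, this count and median describe the list and lend it no support. Each of the 11 was also listed as 0 in 1 or more of the other lines.

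Of the regulators, PAX8, a paired-box factor of kidney, thyroid and the Mullerian tract, was 48.1 FPKM in SKLMS1, against 1.08 in RKN, 195 in SKN and 2.14 in SKUT1, so it was shared with SKN and higher there. The nephron regulators HNF4A and PAX2 did not reach FPKM 1 in any line.

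Membrane proteins of the tubule carried the highest levels. HAVCR1, a receptor known as kidney injury molecule, was 104 FPKM in SKLMS1, against 0.515 in RKN, and listed as 0 in SKN and SKUT1. FXYD2, the regulatory gamma subunit of the sodium pump in the nephron, was 95.3 FPKM in SKLMS1, against 0.108 in SKN, and listed as 0 in RKN and SKUT1. PDZK1IP1, a small membrane protein of the proximal tubule, was 67.4 FPKM in SKLMS1 and listed as 0 in RKN, SKN and SKUT1. In each case the other 3 lines were under FPKM 1 or listed at 0. PDZK1, a scaffold that binds apical transporters, was 21.9 FPKM in SKLMS1, against 0.351 in RKN and 0.0966 in SKUT1, and listed as 0 in SKN. CDH16, a cadherin of the kidney, was 9.34 FPKM in SKLMS1, against 0.0299 in SKN and 0.0166 in SKUT1, and listed as 0 in RKN, and CDH6, a cadherin of the developing proximal tubule, was 20.7 FPKM in SKLMS1, against 1.03 in SKN and 4.60 in SKUT1, and listed as 0 in RKN. KCNJ16, an inward rectifier potassium channel, was 8.47 FPKM in SKLMS1, against 0.00784 in RKN and 0.0729 in SKN, and listed as 0 in SKUT1. VCAM1, an adhesion receptor for leukocytes, was 18.4 FPKM in SKLMS1, against 1.79 in SKN, and listed as 0 in RKN and SKUT1. These last 5 also had SKLMS1 on top, with SKUT1 next for CDH6 and SKN next for VCAM1.

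The list did not move as a block. LRP2 and CUBN, the endocytic receptors of the proximal tubule, were low, with LRP2 under FPKM 1 in all lines and CUBN at 0.0912 FPKM in SKLMS1, against 3.37 in RKN, 1.17 in SKN and 0.111 in SKUT1. AQP1, a water channel, was 0.0437 FPKM in SKLMS1, against 0.0133 in RKN, 0.0177 in SKN and 4.19 in SKUT1. CA12, a carbonic anhydrase, was 5.18 FPKM in SKLMS1, against 11.3 in RKN, 24.8 in SKN and 45.9 in SKUT1 and so lowest in SKLMS1, while the hypoxia-induced CA9 was 1.64 FPKM in SKLMS1, against 0.0584 in SKN and 0.0606 in SKUT1, and listed as 0 in RKN. The SLC12 and SLC22 transporters of the list did not reach FPKM 1.

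**Figure D1:**
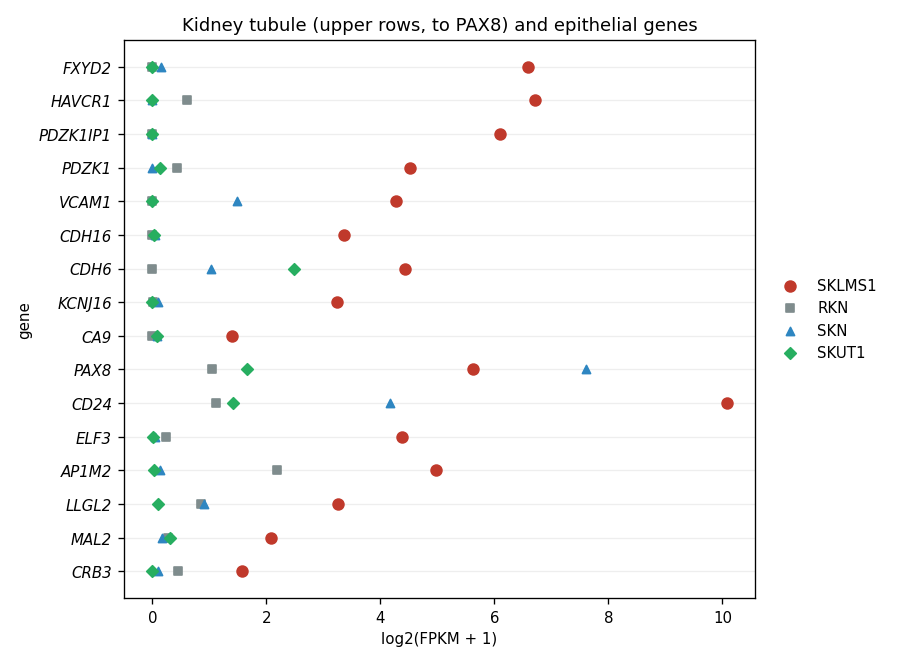
Levels of the kidney tubule and epithelial genes named in the text that stood above every other line in SKLMS1, with PAX8, as log2(FPKM + 1); each point is 1 library, with SKLMS1 in red. For HAVCR1, FXYD2 and PDZK1IP1 the points of RKN, SKN and SKUT1 lie at or near 0, and for PAX8 the point of SKN lies to the right of SKLMS1.

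Some epithelial genes were also high in SKLMS1. Epithelial cells hold themselves together with E-cadherin, claudins and EpCAM and sort proteins to an apical and a basolateral side. Of 42 listed genes for adhesion and polarity, 25 were compared, 7 of them only through SKLMS1. In all, 6 stood above every other line and none below. Of the 6, 2 reached FPKM 1 in another line, so the count lends the list no support. By the mean of the others, 10 were at least 2-fold above (40%, beside 10.7% over all genes) and 1 below (4%, beside 9.83%). The level filter limits these counts too. Sorting and polarity genes were among the 6. ELF3, an ETS factor of epithelia, was 19.7 FPKM in SKLMS1, against 0.182 in RKN, 0.0269 in SKN and 0.0139 in SKUT1. AP1M2, the medium chain of an adaptor that sorts basolateral cargo, was 30.5 FPKM in SKLMS1, against 3.57 in RKN, 0.102 in SKN and 0.0264 in SKUT1. LLGL2, a polarity scaffold, was 8.61 FPKM in SKLMS1, against 0.817 in RKN, 0.871 in SKN and 0.0680 in SKUT1. For these 3 genes no other line exceeded 4 FPKM. MAL2, of apical transport, was 3.24 FPKM in SKLMS1, against 0.215 in RKN, 0.120 in SKN and 0.234 in SKUT1, and CRB3, an apical determinant, was 1.97 FPKM in SKLMS1, against 0.371 in RKN and 0.0705 in SKN, and listed as 0 in SKUT1.

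The adhesion genes that define an epithelium were at low levels in all 4 lines. CDH1, E-cadherin, was 0.936 FPKM in SKLMS1, against 0.0450 in RKN, 0.0683 in SKN and 1.20 in SKUT1, and EPCAM was 1.80 FPKM in SKLMS1, against 0.372 in RKN, 0.208 in SKN and 0.432 in SKUT1, highest in SKLMS1 by just under the 2-fold margin. The splicing factors ESRP1 and ESRP2 and the 3 GRHL factors did not reach FPKM 1 in any line. Among keratins, filament proteins of epithelia, 1 of 15 compared stood above every other line. KRT80 was 73.1 FPKM in SKLMS1, against 3.90 in RKN, 9.11 in SKN and 1.62 in SKUT1, whereas KRT8 was 268 FPKM in SKLMS1, against 1.99 in RKN, 265 in SKN and 9.42 in SKUT1, so SKN matched SKLMS1 in KRT8. Adhesion to the matrix was represented by ITGB6, an epithelial integrin chain, at 12.1 FPKM in SKLMS1, against 0.0359 in SKN and 0.0559 in SKUT1, and listed as 0 in RKN, and by ITGB4, of hemidesmosomes, at 1.57 FPKM in SKLMS1, against 0.162 in RKN, 0.158 in SKN and 0.0521 in SKUT1. SNAI1, a repressor of E-cadherin, was 67.8 FPKM in SKLMS1, against 0.434 in RKN, 8.87 in SKN and 7.24 in SKUT1, whereas its relative SNAI2 was 20.2 FPKM in SKLMS1, against 43.6 in RKN, 48.5 in SKN and 66.3 in SKUT1 and was the lowest of the 4 lines in SKLMS1.

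Contractile genes placed SKLMS1 second to SKUT1. Smooth muscle contracts through actin and myosin, with MYLK, the kinase that activates myosin, as the switch. Of 38 listed contractile genes 35 were compared and 2 stood above every other line (5.71%, near the 3.95% over all genes). None stood below. By the mean of the others 11 were at least 2-fold above (31.4%, beside 10.7% over all genes) and 4 below (11.4%, beside 9.83%). The median difference was 0.50, or 1.14 with SKUT1 left out. The genes above all were MYLK, at 65.7 FPKM in SKLMS1, against 0.805 in RKN, 11.8 in SKN and 31.5 in SKUT1, and JPH2, a junctophilin that ties the sarcoplasmic reticulum to the surface, at 13.6 FPKM in SKLMS1, against 3.74 in RKN, 2.24 in SKN and 4.84 in SKUT1. The most abundant members sat between. MYL9, the regulatory light chain, was 1155 FPKM in SKLMS1, against 191 in RKN, 39.4 in SKN and 1474 in SKUT1. TPM1, a tropomyosin, was 1177 FPKM in SKLMS1, against 70.9 in RKN, 138 in SKN and 2205 in SKUT1. Both were within 2-fold of SKUT1 and far above RKN and SKN. ACTA2, alpha smooth muscle actin, was 127 FPKM in SKLMS1, against 84.7 in RKN, 1.37 in SKN and 1085 in SKUT1, with SKUT1 several times higher than SKLMS1. Some members were high in SKUT1 alone, such as SYNPO2 at 0.281 FPKM in SKLMS1, against 0.0318 in RKN, 0.0614 in SKN and 23.1 in SKUT1 and HSPB6 at 1.55 FPKM in SKLMS1, against 0.260 in RKN, 0.565 in SKN and 512 in SKUT1.

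Genes of fibroblasts and of the fibrous matrix were mostly lower in SKLMS1 than in SKUT1, but not than in RKN or SKN. Of 23 compared fibroblast and pericyte markers, 15 were 2-fold or more below the mean of the others (65.2%, beside 9.83% over all genes). By the same rule 4 were above, and 1 stood beyond every other line each way. The median difference was -1.60, but -0.06 with SKUT1 left out, so the list was lower relative to SKUT1. PDGFRA, a receptor of fibroblasts, was 0.0560 FPKM in SKLMS1, against 0.0558 in RKN, 0.142 in SKN and 136 in SKUT1, and FAP, a fibroblast surface protease, was 0.227 FPKM in SKLMS1, against 3.37 in RKN, 0.0153 in SKN and 82.3 in SKUT1. NT5E, the ectoenzyme CD73, was the member below every line, at 4.37 FPKM in SKLMS1, against 19.8 in RKN, 56.4 in SKN and 209 in SKUT1. MCAM, an adhesion protein of pericytes and melanoma, was the member above, at 46.6 FPKM in SKLMS1, against 1.99 in RKN, 22.3 in SKN and 15.4 in SKUT1. PDGFRB, the pericyte receptor, was 33.7 FPKM in SKLMS1, against 1.60 in RKN, 0.00714 in SKN and 70.7 in SKUT1, so its level in SKLMS1 was second to SKUT1.

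Among 34 compared fibrillar collagens and partner proteins, 21 were 2-fold or more below the mean of the others (61.8%, beside 9.83% over all genes) and 7 above. The median difference was -1.53, which was 0.02 with SKUT1 left out. COL5A2 was the 1 member below every other line, at 4.87 FPKM in SKLMS1, against 97.7 in RKN, 13.8 in SKN and 314 in SKUT1. COL5A1, its partner chain, was 203 FPKM in SKLMS1, against 8.04 in RKN, 36.3 in SKN and 566 in SKUT1. COL1A1 was 939 FPKM in SKLMS1, against 7.06 in RKN and 0.447 in SKN, and listed as 0 in SKUT1, and COL1A2, the other chain of collagen I, was 77.5 FPKM in SKLMS1, against 98.3 in RKN, 0.113 in SKN and 5096 in SKUT1. As SKUT1 carried 5096 FPKM of COL1A2, its 0 for COL1A1 is doubtful, and the place of SKLMS1 as highest in COL1A1 rests on that entry. FN1, fibronectin, was 651 FPKM in SKLMS1, against 0.266 in RKN and 2960.4 in SKN, and listed as 0 in SKUT1. VCAN, a large proteoglycan, was 159.6 FPKM in SKLMS1, against 0.0223 in RKN, 0.0296 in SKN and 257 in SKUT1, and LUM, lumican, was 75.3 FPKM in SKLMS1, against 0.0620 in RKN and 415 in SKUT1, and listed as 0 in SKN. Both were second to SKUT1, with RKN and SKN under 0.1 FPKM or listed at 0. COL27A1, a collagen of cartilage, was 19.8 FPKM in SKLMS1, against 2.30 in RKN, 5.33 in SKN and 0.349 in SKUT1, and the secreted basement membrane chain COL18A1 was 202 FPKM in SKLMS1, against 8.57 in RKN, 21.7 in SKN and 14.1 in SKUT1.

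**Figure D2:**
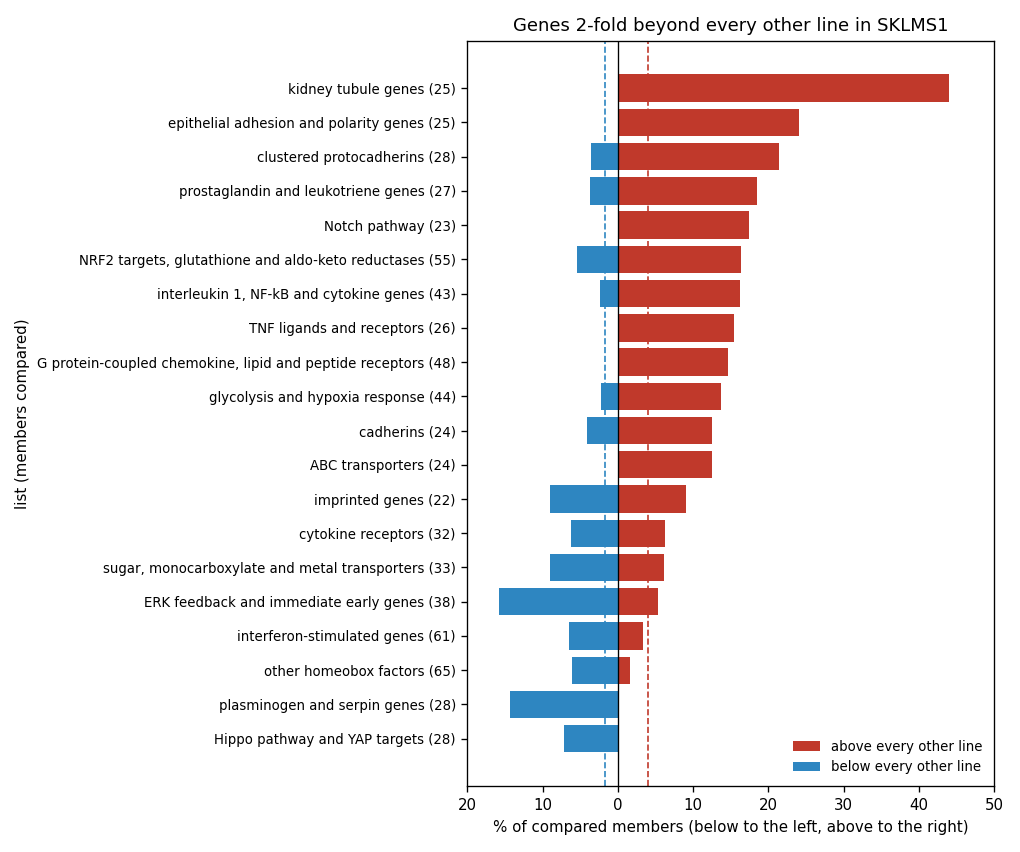
Share of each gene list that stood at least 2-fold above (red, to the right) or below (blue, to the left) every other line in SKLMS1, in percent of the compared members, for the lists with 20 or more compared members and the highest shares; dashed lines are the shares over all compared genes, 3.95% and 1.68%. The kidney list reaches 44.0%, and the ERK feedback list has 15.8% below. Genes that passed the filter only through SKLMS1 are counted, among them 12 of 25 kidney, 7 of 25 epithelial and 8 of 28 clustered protocadherin genes. The shares above of these lists lend them no support.

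Some genes of glucose uptake and glycolysis were higher in SKLMS1. Glycolysis turns glucose into pyruvate, and many of its genes also respond to low oxygen through HIF1A. Of 50 listed genes 44 were compared, 1 only through SKLMS1. In all 6 stood above every other line (13.6%, beside 3.95% over all genes) and 1 below (2.27%, beside 1.68%). By the mean of the others 14 were at least 2-fold above (31.8%, beside 10.7% over all genes) and 2 below (4.5%, beside 9.83%). The median difference was 0.56, or 0.11 with RKN left out. Among the 6 were genes of entry and commitment. SLC2A1, the glucose transporter GLUT1, was 154 FPKM in SKLMS1, against 12.3 in RKN, 33.3 in SKN and 38.7 in SKUT1. PFKP, a form of phosphofructokinase, was 397 FPKM in SKLMS1, against 33.8 in RKN, 138 in SKN and 148 in SKUT1. PFKFB3 and PFKFB4 make the activator of phosphofructokinase. PFKFB3 was 68.3 FPKM in SKLMS1, against 10.7 in RKN, 32.7 in SKN and 7.70 in SKUT1, and PFKFB4 was 12.6 FPKM in SKLMS1, against 3.09 in RKN, 5.61 in SKN and 0.957 in SKUT1. In these 4 genes SKLMS1 was highest and RKN or SKUT1 lowest, with differences of 2.57 for SLC2A1 and 2.15 for PFKP.

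Lower steps of the pathway differed less. ALDOA, an aldolase, was 1259.6 FPKM in SKLMS1, against 547 in RKN, 794 in SKN and 844 in SKUT1. PGK1, phosphoglycerate kinase, was 709.7 FPKM in SKLMS1, against 179 in RKN, 391.7 in SKN and 292 in SKUT1, with RKN lowest. LDHA, which makes lactate, was 919.8 FPKM in SKLMS1, against 296 in RKN, 1026 in SKN and 1351 in SKUT1, so SKUT1 and SKN were above SKLMS1. SLC2A3, the high-affinity transporter GLUT3, was the member below every other line, at 3.03 FPKM in SKLMS1, against 10.3 in RKN, 13.1 in SKN and 31.4 in SKUT1. Oxygen response genes varied. EGLN3, a prolyl hydroxylase that marks HIF1A for decay, was 14.8 FPKM in SKLMS1, against 0.282 in RKN, 2.69 in SKN and 0.114 in SKUT1. VEGFA, the vascular growth factor, was 121 FPKM in SKLMS1, against 7.94 in RKN, 77.97 in SKN and 55.5 in SKUT1. HIF1A itself was 254 FPKM in SKLMS1, against 38.1 in RKN, 216 in SKN and 312 in SKUT1 and so lay within the range of SKN and SKUT1.

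Detoxification genes were higher in part. NRF2, the product of NFE2L2, activates genes against oxidative damage, among them aldo-keto reductases, glutathione enzymes and NQO1. Of 61 listed genes, 55 were compared, 2 of them only through SKLMS1. In all 9 stood above every other line (16.4%, beside 3.95% over all genes) and 3 below (5.45%, beside 1.68%). By the mean of the others 13 were at least 2-fold above (23.6%, beside 10.7% over all genes) and 6 below (10.9%, beside 9.83%). The median difference was 0.15, or -0.07 with SKN left out. The aldo-keto reductases reduce aldehydes, ketones and steroids. AKR1B1, aldose reductase, was 1084 FPKM in SKLMS1, against 0.0746 in RKN, 364 in SKN and 73.7 in SKUT1. AKR1C3, which also acts on steroids and prostaglandins, was 100 FPKM in SKLMS1, against 1.18 in RKN, 15.3 in SKN and 21.9 in SKUT1. AKR1C1 was 48.3 FPKM in SKLMS1, against 1.29 in RKN, 0.973 in SKN and 13.3 in SKUT1, and AKR1B10 was 7.72 FPKM in SKLMS1, against 0.0850 in SKN and 0.294 in SKUT1, and listed as 0 in RKN. The AKR1C genes are near-identical to each other, so how reads were split among them is uncertain.

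Glutathione and pentose phosphate genes were the next group. GSTM1, a glutathione transferase with close relatives, was 41.0 FPKM in SKLMS1, against 0.363 in RKN and 0.0834 in SKUT1, and listed as 0 in SKN. GSR, glutathione reductase, was 58.4 FPKM in SKLMS1, against 28.04 in RKN, 12.7 in SKN and 22.7 in SKUT1, and GSTP1 was 956 FPKM in SKLMS1, against 433 in RKN, 354 in SKN and 361 in SKUT1. TKT, transketolase, was 570 FPKM in SKLMS1, against 175 in RKN, 166 in SKN and 129 in SKUT1, and HMOX1, heme oxygenase, was 237 FPKM in SKLMS1, against 42.6 in RKN, 21.8 in SKN and 93.5 in SKUT1. In all 5 the level in SKLMS1 on the log2(FPKM + 1) scale was at least 2-fold above the highest of the other lines. The NRF2 targets NQO1, TXNRD1 and GCLM were not highest in SKLMS1. NQO1 was 98.9 FPKM in SKLMS1, against 86.2 in RKN, 78.5 in SKN and 200 in SKUT1. TXNRD1, thioredoxin reductase, was 72.8 FPKM in SKLMS1, against 112 in RKN, 88.6 in SKN and 538 in SKUT1, and GCLM, of glutathione synthesis, was 23.4 FPKM in SKLMS1, against 11.97 in RKN, 26.6 in SKN and 28.9 in SKUT1. NFE2L2 itself was 47.7 FPKM in SKLMS1, against 41.3 in RKN, 36.9 in SKN and 87.1 in SKUT1. GPX3, a secreted peroxidase, was the lowest called member, at 0.146 FPKM in SKLMS1, against 27.5 in RKN, 2.18 in SKN and 22.4 in SKUT1, and MGST2 was 3.55 FPKM in SKLMS1, against 20.4 in RKN, 16.98 in SKN and 17.8 in SKUT1.

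Prostaglandin metabolism overlapped with this group. Phospholipase A2 and the cyclooxygenases PTGS1 and PTGS2 start the pathway, and later enzymes shape and break down its products. Of 27 compared genes, 5 stood above every other line (18.5%, beside 3.95% over all genes) and 1 below (3.70%, beside 1.68%). Of the 27, 1 passed the filter only through SKLMS1, and 3 of the 5 were the reductases AKR1B1, AKR1C1 and AKR1C3. The others were HPGD, which inactivates prostaglandins, at 4.88 FPKM in SKLMS1 and listed as 0 in RKN, SKN and SKUT1, and TBXAS1, thromboxane synthase, at 7.66 FPKM in SKLMS1, against 2.15 in SKN and 0.427 in SKUT1, and listed as 0 in RKN. PTGIS, prostacyclin synthase, was 146 FPKM in SKLMS1, against 0.0878 in RKN and 132 in SKUT1, and listed as 0 in SKN. The starting enzymes were low. PTGS2 was 0.00756 FPKM in SKLMS1, against 0.441 in SKN and 27.9 in SKUT1, and listed as 0 in RKN, PTGS1 was 0.715 FPKM in SKLMS1, against 0.155 in RKN and 46.6 in SKUT1, and listed as 0 in SKN and PLA2G4A was 0.548 FPKM in SKLMS1, against 3.61 in SKN and 64.8 in SKUT1, and listed as 0 in RKN. PTGR1, a reductase of these products, was the member below every other line, at 10.3 FPKM in SKLMS1, against 40.3 in RKN, 62.6 in SKN and 55.7 in SKUT1.

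**Figure D3:**
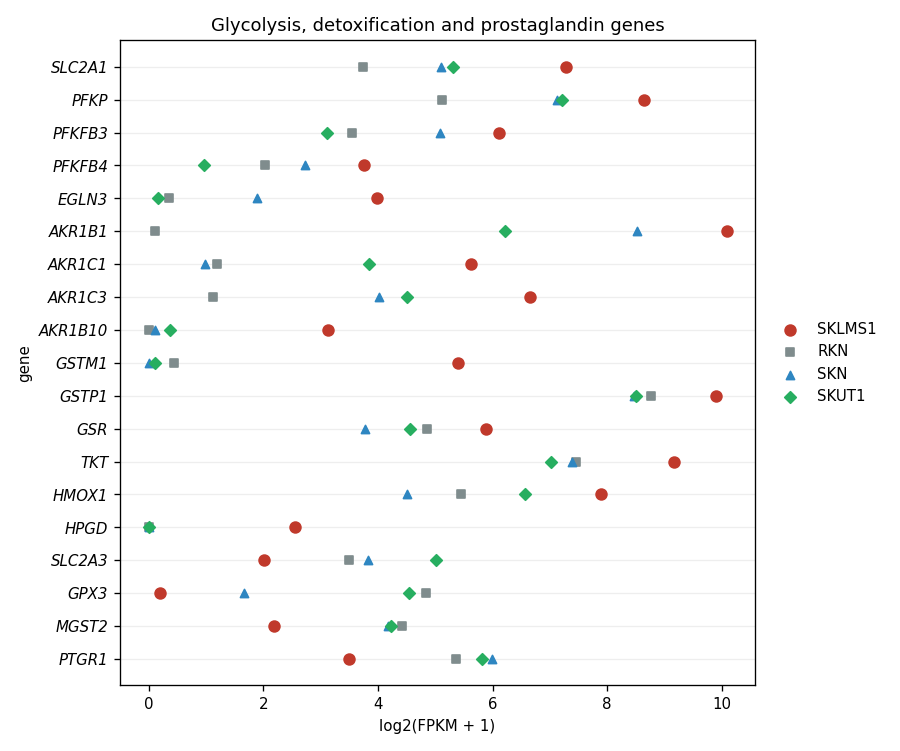
Levels of 15 glycolysis, detoxification and prostaglandin genes that stood above every other line in SKLMS1, with SLC2A3, GPX3, MGST2 and PTGR1, which stood below, as log2(FPKM + 1) in the 4 libraries. The red points of SKLMS1 are rightmost in the upper rows and leftmost in the last 4.

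Many feedback genes of the ERK pathway were lower in SKLMS1. Growth factor receptors signal through RAS, RAF, MEK and ERK, and active ERK switches on its own brakes, the Sprouty, SPRED and DUSP proteins, together with early genes such as FOS. Of 38 compared genes 6 stood below every other line (15.8%, beside 1.68% over all genes) and 2 above (5.26%, beside 3.95%). By the mean of the others 17 were 2-fold or more below (44.7%, beside 9.83% over all genes). By that rule 3 were 2-fold or more above (7.9%, beside 10.7%). The median difference was -0.70. Sprouty and SPRED brakes were first among them. SPRY4 was 0.116 FPKM in SKLMS1, against 6.15 in RKN, 19.4 in SKN and 15.2 in SKUT1. SPRED2 was 3.94 FPKM in SKLMS1, against 10.7 in RKN, 22.7 in SKN and 20.3 in SKUT1, and SPRED3 was 0.0466 FPKM in SKLMS1, against 1.72 in RKN, 1.57 in SKN and 2.13 in SKUT1. The difference was -3.57 for SPRY4 and -1.87 for SPRED2. SPRY2 was 2.13 FPKM in SKLMS1, against 1.31 in RKN, 40.9 in SKN and 28.1 in SKUT1, and here RKN shared the low level.

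Phosphatases and transcription factors followed. DUSP6, the cytosolic phosphatase of ERK, was 0.298 FPKM in SKLMS1, against 4.47 in RKN, 39.8 in SKN and 2.56 in SKUT1. FOS was 0.582 FPKM in SKLMS1, against 2.93 in RKN, 10.02 in SKN and 2.66 in SKUT1. IER5, an early gene, was 7.49 FPKM in SKLMS1, against 16.1 in RKN, 16.2 in SKN and 26.5 in SKUT1. ETV4, an ETS factor turned on by ERK, was 0.947 FPKM in SKLMS1, against 12.8 in RKN, 55.04 in SKN and 1.67 in SKUT1, and PHLDA1 was 5.01 FPKM in SKLMS1, against 36.5 in RKN, 74.2 in SKN and 9.59 in SKUT1. CCND1, cyclin D1, was 31.9 FPKM in SKLMS1, against 39.8 in RKN, 111 in SKN and 537 in SKUT1. SKLMS1 was the lowest of the 4 lines in each of these 6 genes. Not all members followed. EGR1 was 7.08 FPKM in SKLMS1, against 9.24 in RKN, 4.92 in SKN and 6.91 in SKUT1, DUSP1 was 58.8 FPKM in SKLMS1, against 5.80 in RKN, 145 in SKN and 120.4 in SKUT1 and FOSL1 was 68.6 FPKM in SKLMS1, against 38.9 in RKN, 289 in SKN and 73.2 in SKUT1. Above every other line stood EPHA4, an ephrin receptor, at 10.02 FPKM in SKLMS1, against 1.57 in RKN, 0.410 in SKN and 0.711 in SKUT1, and DUSP8, a phosphatase of the JNK branch, at 3.0 FPKM in SKLMS1, against 0.763 in RKN, 0.194 in SKN and 0.794 in SKUT1. SKN was the highest line in SPRY4, DUSP6, ETV4, PHLDA1, SPRY2 and FOS, and with SKN left out the median of the list was -0.56, against -0.82 without RKN and -0.85 without SKUT1. The members below every remaining line then numbered 7 without SKN, 13 without RKN and 9 without SKUT1.

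**Figure D4:**
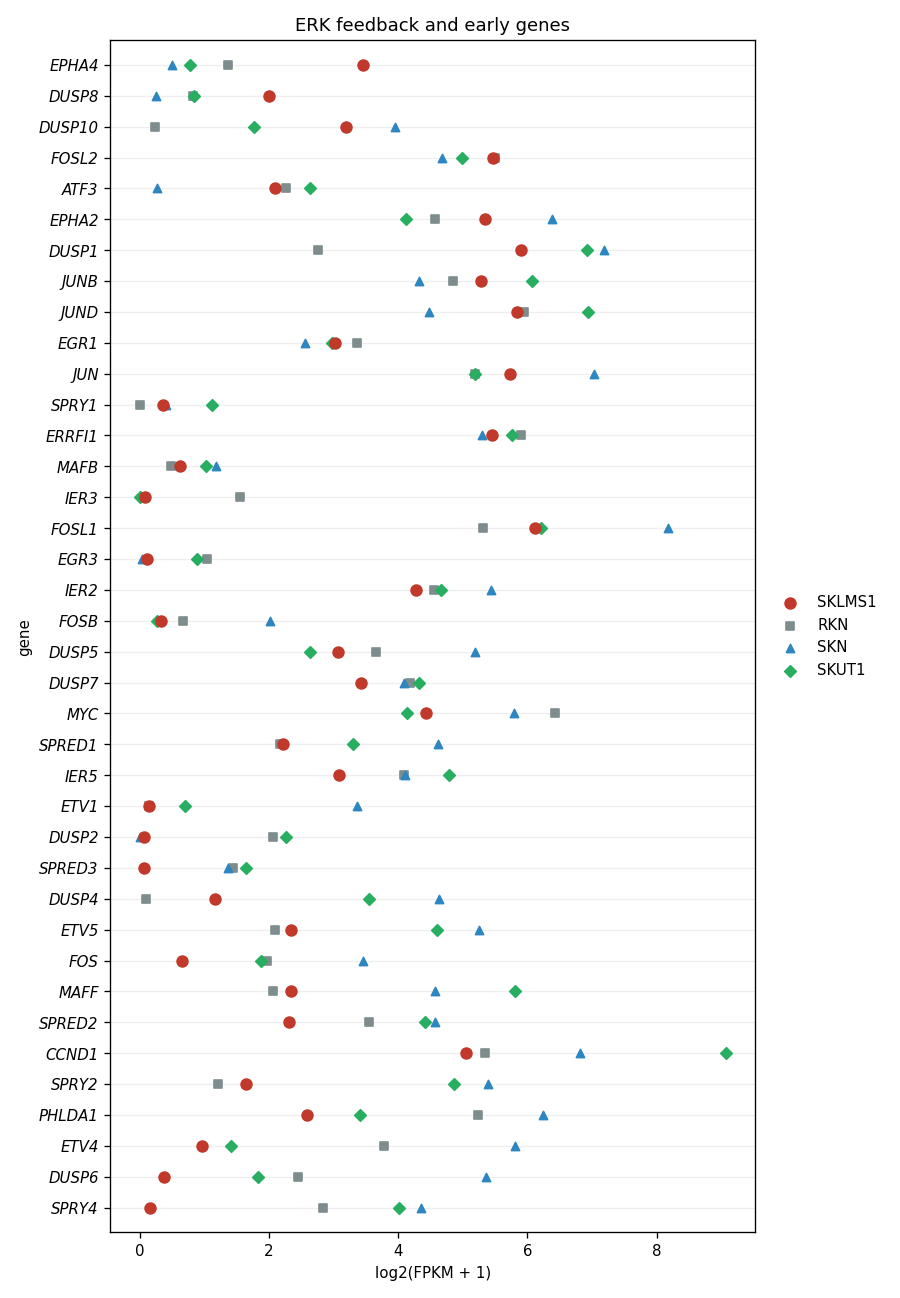
Levels of all 38 compared ERK feedback and early genes as log2(FPKM + 1), ordered by the difference of SKLMS1 from the mean of RKN, SKN and SKUT1; each point is 1 library. The red SKLMS1 points are leftmost for SPRY4 and DUSP6 at the bottom and rightmost for EPHA4 and DUSP8 at the top.

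Several ligands were high in SKLMS1. Growth factors are secreted proteins that act on receptors of the same or neighbouring cells. Of 42 compared ligands, 4 stood above every other line (9.52%, beside 3.95% over all genes) and 1 below (2.38%, beside 1.68%). Of the 42, 3 passed the filter only through SKLMS1, and 2 of the 4 reached FPKM 1 in another line. PDGFB, a ligand of the PDGF receptors, was 45.5 FPKM in SKLMS1, against 0.0136 in RKN, 0.995 in SKN and 0.0188 in SKUT1. PTN, pleiotrophin, was 36.4 FPKM in SKLMS1, against 0.0221 in RKN, 0.0294 in SKN and 3.75 in SKUT1, and NRG1, a ligand of ERBB receptors, was 43.8 FPKM in SKLMS1, against 1.07 in RKN, 2.47 in SKN and 3.41 in SKUT1. ARTN, a ligand of RET, was 4.24 FPKM in SKLMS1, against 0.682 in RKN, 0.528 in SKN and 0.238 in SKUT1. PGF, placental growth factor, was 0.178 FPKM in SKLMS1, against 3.73 in RKN, 37.4 in SKN and 4.15 in SKUT1 and was lowest in SKLMS1. Among receptor tyrosine kinases 3 of 32 stood above every other line, all 3 of them having passed the filter only through SKLMS1, so the count is no support. They include FGFR2, a fibroblast growth factor receptor, at 10.1 FPKM in SKLMS1, against 0.206 in RKN, 0.0140 in SKN and 0.0400 in SKUT1 and CSF1R, the CSF1 receptor, at 5.48 FPKM in SKLMS1, against 0.0157 in RKN, 0.437 in SKN and 0.0324 in SKUT1. The CSF1 ligand was 63.7 FPKM in SKLMS1, against 16 in RKN, 2.75 in SKN and 23.5 in SKUT1.

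Activin, TGF-beta and WNT pathway genes showed single strong members. INHBB, the activin beta B chain, was 42.8 FPKM in SKLMS1, against 0.0395 in RKN, 0.381 in SKN and 0.191 in SKUT1. TGFB2 was 42.5 FPKM in SKLMS1, against 5.13 in RKN, 0.215 in SKN and 1.29 in SKUT1. FST, the activin inhibitor follistatin, was 0.0398 FPKM in SKLMS1, against 3.57 in SKN and 165 in SKUT1, and listed as 0 in RKN, with the high level in SKUT1. FZD6, a WNT receptor, was 36.2 FPKM in SKLMS1, against 0.367 in RKN, 10.2 in SKN and 13.2 in SKUT1, and WLS, needed to secrete WNT proteins, was 0.947 FPKM in SKLMS1, against 5.04 in RKN, 17.4 in SKN and 51.3 in SKUT1 and lowest in SKLMS1. Across 58 compared TGF-beta, BMP and activin genes, 3 stood above every other line (5.17%, beside 3.95% over all genes) and 1 below (1.72%, beside 1.68%), which is near the shares over all genes. By the mean of the others 9 were at least 2-fold above (15.5%, beside 10.7% over all genes) and 18 below (31.0%, beside 9.83%). The median difference of -0.36 was 0.31 with SKUT1 left out.

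The Notch list had 4 of 23 compared members above every other line (17.4%, beside 3.95% over all genes) and none below. Of the 23, 1 passed the filter only through SKLMS1. Notch receptors are tuned by the fringe sugar transferases. LFNG was 71.7 FPKM in SKLMS1, against 1.04 in RKN, 1.08 in SKN and 3.96 in SKUT1, and MFNG was 3.58 FPKM in SKLMS1, against 0.158 in RKN, 0.323 in SKN and 0.0670 in SKUT1. The HES-type factors HES4 and HES6 were above too, with HES6 at 12.99 FPKM in SKLMS1, against 2.44 in RKN, 3.04 in SKN and 1.44 in SKUT1. The receptors were not higher, with NOTCH1 at 3.50 FPKM in SKLMS1, against 5.24 in RKN, 2.88 in SKN and 5.32 in SKUT1 and NOTCH2 at 11.5 FPKM in SKLMS1, against 14.2 in RKN, 35.9 in SKN and 50.8 in SKUT1. JAG1, a ligand, was 39.3 FPKM in SKLMS1, against 1.30 in RKN, 16.8 in SKN and 33.9 in SKUT1, and so within 2-fold of SKUT1.

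TNF ligands and receptors held 4 of 26 compared members above every other line (15.4%, beside 3.95% over all genes) and none below. Of the 26, 2 passed the filter only through SKLMS1, and 2 of the 4 reached FPKM 1 in another line. CD70, the ligand of CD27, was 202 FPKM in SKLMS1, against 12.1 in RKN, 19.7 in SKN and 0.0578 in SKUT1. TNFSF10, the death ligand TRAIL, was 10.3 FPKM in SKLMS1, against 0.0695 in RKN, 0.0738 in SKN and 0.0479 in SKUT1. TNFSF9 was 22.5 FPKM in SKLMS1, against 3.11 in RKN, 2.32 in SKN and 7.25 in SKUT1, and its receptor TNFRSF9 was 5.28 FPKM in SKLMS1, against 0.0972 in RKN, 0.279 in SKN and 0.00705 in SKUT1, so both sides of that pair were highest in SKLMS1. FAS, a death receptor, was 3.72 FPKM in SKLMS1, against 37.9 in RKN, 2.69 in SKN and 40.5 in SKUT1, with SKN lower still.

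Inflammatory cytokines split. Of 43 compared genes, 7 stood above every other line (16.3%, beside 3.95% over all genes) and 1 below (2.33%, beside 1.68%). Of the 43, 2 passed the filter only through SKLMS1, and the 7 include IL32, a working marker chosen with its level known. By the mean of the others, 15 were 2-fold or more below (34.9%, beside 9.83% over all genes) and 10 above (23.3%, beside 10.7%). Chemokines that draw neutrophils were low, with CXCL1 at 0.775 FPKM in SKLMS1, against 43.8 in RKN, 641 in SKN and 1.65 in SKUT1. CXCL3 was 0.343 FPKM in SKLMS1, against 15.3 in RKN, 56.3 in SKN and 0.0863 in SKUT1, with SKUT1 lower still. ICAM1, a leukocyte adhesion receptor, was 0.107 FPKM in SKLMS1, against 2.44 in RKN, 56.8 in SKN and 8.07 in SKUT1 and lowest in SKLMS1. TNFAIP2 was 139.8 FPKM in SKLMS1, against 13.8 in RKN, 48.2 in SKN and 12.7 in SKUT1, and IL15, a growth factor of killer lymphocytes, was 14.5 FPKM in SKLMS1, against 0.0330 in RKN, 3.09 in SKN and 0.927 in SKUT1. SKN was the highest line in CXCL1, CXCL3 and ICAM1. The median difference of the list was -0.29, and -0.07 with SKN left out.

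Interferon genes leaned to the low side. Of 61 compared genes 4 stood below every other line (6.56%, beside 1.68% over all genes) and 2 above (3.28%, beside 3.95%). By the mean of the others 18 were 2-fold or more below (29.5%, beside 9.83% over all genes) and 6 above (9.84%, beside 10.7%). The median difference was -0.45, or -0.29 with RKN left out. With SKN left out 12 stood below both remaining lines, and with SKUT1 left out 9. IFITM2, an antiviral membrane protein, was 10.2 FPKM in SKLMS1, against 319.7 in RKN, 49.6 in SKN and 298 in SKUT1, and IFITM3 was 119 FPKM in SKLMS1, against 408 in RKN, 289 in SKN and 743 in SKUT1. The IFITM genes are near-identical and their reads may be split unevenly. OAS2, an antiviral sensor, was 0.141 FPKM in SKLMS1, against 11 in RKN, 5.34 in SKN and 1.41 in SKUT1, and SP110, a nuclear body protein, was 2.17 FPKM in SKLMS1, against 12.8 in RKN, 5.47 in SKN and 7.10 in SKUT1. APOL1 was 98.6 FPKM in SKLMS1, against 12 in RKN, 2.01 in SKN and 18.97 in SKUT1 and stood far above. ISG15 was 38.3 FPKM in SKLMS1, against 321 in RKN, 57.9 in SKN and 69.8 in SKUT1. IFI6 was 12.98 FPKM in SKLMS1, against 284 in RKN, 10.4 in SKN and 48.8 in SKUT1, and RKN was the highest line in both ISG15 and IFI6.

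Metallothioneins, small zinc-binding proteins coded side by side, were low with exceptions. Of 8 compared genes 5 were 2-fold or more below the mean of the others (62.5%, beside 9.83% over all genes). By the same rule 1 was above (12.5%, beside 10.7%). Below every other line stood 1 (12.5%, beside 1.68%), and none stood above. The median difference was -2.17, or -1.05 with RKN left out. MT2A was 475 FPKM in SKLMS1, against 3765 in RKN, 2087 in SKN and 1567 in SKUT1 and the member below every other line. MT1X was 22.9 FPKM in SKLMS1, against 792 in RKN, 90.2 in SKN and 40.8 in SKUT1, and MT1E was 33.9 FPKM in SKLMS1, against 114 in SKN and 78.9 in SKUT1, and listed as 0 in RKN. These genes are near-identical copies, and the division of reads among them is uncertain. In RKN, MT1E was listed at 0 beside 792 FPKM of MT1X.

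G protein-coupled receptors gave 7 of 48 compared members above every other line (14.6%, beside 3.95% over all genes) and none below. Of the 48, 4 passed the filter only through SKLMS1. As 3 of the 7 reached FPKM 1 in another line, the count is no support. GPR15, a homing receptor of lymphocytes, was 34.8 FPKM in SKLMS1 and listed as 0 in RKN, SKN and SKUT1. CCR7, another homing receptor, was 7.07 FPKM in SKLMS1, against 0.105 in RKN and 0.433 in SKUT1, and listed as 0 in SKN. PTGFR, the receptor of prostaglandin F2 alpha, was 11.01 FPKM in SKLMS1, against 0.664 in SKN and 3.57 in SKUT1, and listed as 0 in RKN. PTGER2 was 7.22 FPKM in SKLMS1, against 1.02 in SKN and 3.65 in SKUT1, and listed as 0 in RKN, highest in SKLMS1 by less than the 2-fold margin. ADORA2B, an adenosine receptor, was 27.8 FPKM in SKLMS1, against 11.7 in RKN, 7.69 in SKN and 4.72 in SKUT1. On the other side S1PR5 was 0.0864 FPKM in SKLMS1, against 13.9 in RKN, 0.0737 in SKN and 3.95 in SKUT1 and NTSR1 was listed at 0 in SKLMS1, against 0.0226 in RKN and 35.3 in SKN, and listed as 0 in SKUT1.

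Clustered protocadherins are adhesion proteins made from tandem gene arrays, and 6 of 28 compared members stood above every other line and 1 below. Of the 28, 8 passed only through SKLMS1, so the count is no support. PCDHB5 was 8.94 FPKM in SKLMS1, against 0.0329 in RKN and 0.287 in SKUT1, and listed as 0 in SKN, and PCDHGA10 was 9.11 FPKM in SKLMS1, against 1.22 in RKN, 0.184 in SKN and 3.67 in SKUT1. PCDHGB7 was 0.323 FPKM in SKLMS1, against 4.99 in RKN, 2.89 in SKN and 4.90 in SKUT1 and the one below. The genes share long stretches of sequence, and reads may be counted for more than one. Another array member, PCDHGB5, was present in SKUT1 alone, being listed at 0 in SKLMS1, against 15.8 in SKUT1, and listed as 0 in RKN and SKN.

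Several genes of the plasminogen system were lower in SKLMS1. PLAT and PLAU cut plasminogen to plasmin, PLAUR holds PLAU on the surface and some serpins block PLAT and PLAU. Of 28 compared plasminogen and serpin genes 4 stood below every other line (14.3%, beside 1.68% over all genes) and none above. These 4 were PLAT, PLAUR, SERPINB8 and PROCR, so the count is not one of the plasminogen system alone. By the mean of the others 13 were 2-fold or more below (46.4%, beside 9.83% over all genes) and 5 above (17.9%, beside 10.7%). The median difference was -0.99, or -0.55 with SKN left out, -0.41 with SKUT1 left out and -1.39 with RKN left out. PLAT was 0.321 FPKM in SKLMS1, against 10.6 in RKN, 15.8 in SKN and 240.2 in SKUT1, and PLAUR was 3.25 FPKM in SKLMS1, against 23.9 in RKN, 77.1 in SKN and 72.8 in SKUT1. PLAU was 46.02 FPKM in SKLMS1, against 63.6 in RKN, 192 in SKN and 63.5 in SKUT1 and lowest by a smaller margin. SERPINB8 was 1.07 FPKM in SKLMS1, against 6.45 in RKN, 10.2 in SKN and 23.5 in SKUT1, and PROCR, the receptor of protein C, was 15 FPKM in SKLMS1, against 40.8 in RKN, 31.5 in SKN and 46.5 in SKUT1.

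Homeobox genes placed the line differently by cluster. HOX genes record position along the body axis. In the HOXD cluster all 7 compared genes were below the mean of the others. Below every line were 2 of them (28.6%, beside 1.68% over all genes). HOXD8 was 0.0231 FPKM in SKLMS1, against 2.27 in RKN, 4.03 in SKN and 14.6 in SKUT1, and HOXD9 was listed at 0 in SKLMS1, against 4.23 in RKN, 1.78 in SKN and 2.29 in SKUT1. The anterior HOXA genes went the other way, with HOXA3 at 11.5 FPKM in SKLMS1, against 0.281 in RKN, 6.22 in SKN and 0.695 in SKUT1 and HOXA4, the only member of 10 above every other line, at 6.46 FPKM in SKLMS1, against 0.0778 in RKN, 0.0776 in SKN and 1.77 in SKUT1. HOXA4 made 10% of the HOXA members compared, beside 3.95% over all genes. The other homeobox factors had 4 of 65 compared members below every line (6.15%, beside 1.68% over all genes) and 1 above (1.54%, beside 3.95%). By the mean of the others 17 were at least 2-fold below (26.2%, beside 9.83%) and 7 above (10.8%, beside 10.7%).

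The genes with the widest gap below were of mixed function. UCHL1, a ubiquitin hydrolase of neurons, was 0.601 FPKM in SKLMS1, against 75.2 in RKN, 223 in SKN and 241 in SKUT1. RCN3, a calcium-binding protein of the endoplasmic reticulum, was 0.453 FPKM in SKLMS1, against 86.5 in RKN, 89.02 in SKN and 285 in SKUT1. GLUL, glutamine synthetase, was 0.571 FPKM in SKLMS1, against 31.1 in RKN, 20.4 in SKN and 49.5 in SKUT1. MTAP, which recycles the methionine of polyamine synthesis, was listed at 0 in SKLMS1, against 35.9 in RKN, 17.9 in SKN and 14.6 in SKUT1, and ODC1, the first enzyme of that synthesis, was 19.4 FPKM in SKLMS1, against 146 in RKN, 109 in SKN and 84.9 in SKUT1. CD9, a tetraspanin, was 5.01 FPKM in SKLMS1, against 53.7 in RKN, 142 in SKN and 177 in SKUT1. In all 6 the other 3 lines lay clearly apart from SKLMS1, with differences of -6.65 for UCHL1, -6.50 for RCN3 and -4.38 for GLUL. MTAP lies beside CDKN2A on the short arm of chromosome 9. CDKN2A was 0.549 FPKM in SKLMS1, against 326 in RKN, 0.125 in SKN and 16.4 in SKUT1, and CDKN2B was 0.00887 FPKM in SKLMS1, against 6.41 in RKN, 0.0108 in SKN and 4.04 in SKUT1. SKN was lower still in CDKN2A but not in MTAP.

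Position on the genome added a pattern that the pathways did not hold. Genes were put in order along each chromosome from the RefSeq annotation of GRCh38.p14, used for order only, and 97.7% of the compared genes could be placed. Chromosome 11 held 782 compared genes, or 5.70% of all, and 63 of the 231 genes below every other line, or 27.3% of them. That is 8.06% of the compared genes on the chromosome beside 1.68% over all genes. On the same chromosome the share was 3.07% in RKN, 1.28% in SKN and 2.94% in SKUT1. Other lines had high shares on single chromosomes too, the highest being 11.2% for RKN on chromosome 5. These shares rest on unlike totals. Over all compared genes, 711 stood below every other line in RKN, 248 in SKN and 584 in SKUT1, beside 231 in SKLMS1.

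The low genes gathered at the far end of the long arm. Windows of about 25 neighbouring compared genes were cut along every chromosome, and of the 526 windows the 5 with the lowest median difference all lay among the last 7 of the 31 windows of chromosome 11. Those 7 windows ran from SRSF8 to GLB1L2 and were chosen after their values were seen. They held 175 compared genes, of which 39 stood below every other line (22.3%) and 5 above, and 156 were below the mean of the others by any margin. The median difference was -0.95, and by line it was -0.86 against RKN, -0.97 against SKN and -1.09 against SKUT1. In the rest of the chromosome 24 of 607 compared genes (3.95%) were below every other line, with a median difference of -0.36. In the window from UBASH3B to FAM118B, all 25 genes were below the mean of the others.

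Many of these genes are ordinary cellular ones. SDHD, a subunit of succinate dehydrogenase, was 14.9 FPKM in SKLMS1, against 69.2 in RKN, 40.5 in SKN and 47.1 in SKUT1. DLAT, of the pyruvate dehydrogenase complex, was 4.42 FPKM in SKLMS1, against 22.4 in RKN, 13.3 in SKN and 17.5 in SKUT1. YAP1, the effector of the Hippo pathway, was 9.93 FPKM in SKLMS1, against 25.1 in RKN, 37.8 in SKN and 57.1 in SKUT1. In each the 3 other lines were above SKLMS1, with a difference of -1.71 for SDHD and -1.83 for YAP1. APLP2, a relative of the amyloid precursor, was 38.1 FPKM in SKLMS1, against 117 in RKN, 281 in SKN and 580.1 in SKUT1. ATM, the kinase of the DNA damage response, was 1.88 FPKM in SKLMS1, against 3.83 in RKN, 8.17 in SKN and 6.07 in SKUT1, and CHEK1, a checkpoint kinase, was 6.08 FPKM in SKLMS1, against 21.8 in RKN, 14.96 in SKN and 8.04 in SKUT1. Both were lowest in SKLMS1 by less than the 2-fold margin. STT3A, of protein glycosylation, was 26.1 FPKM in SKLMS1, against 72.5 in RKN, 66.4 in SKN and 138 in SKUT1, and EI24 was 21.7 FPKM in SKLMS1, against 77.6 in RKN, 54.2 in SKN and 65.7 in SKUT1. Here SKLMS1 was again lowest, and SKUT1 was highest for STT3A and RKN for EI24. Some genes of the stretch were higher in SKLMS1, among them FXYD2, MMP7, CADM1 and MCAM, and CADM1, an adhesion protein, was 11.5 FPKM in SKLMS1, against 0.0811 in RKN, 0.578 in SKN and 0.448 in SKUT1. Members of pathway lists that stood below every line and lie in this stretch include YAP1, SDHD and ZW10, the last at 4.71 FPKM in SKLMS1, against 19.03 in RKN, 15.5 in SKN and 14.9 in SKUT1.

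**Figure D5:**
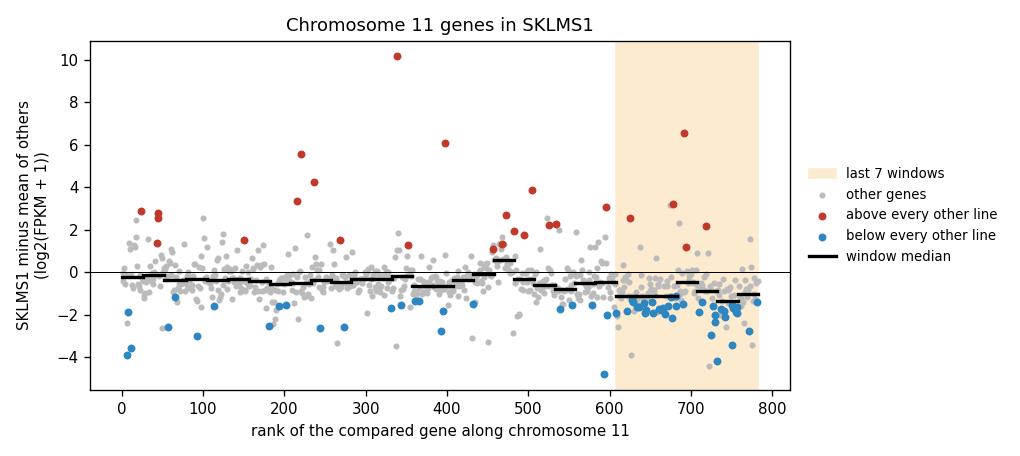
Difference of SKLMS1 from the mean of RKN, SKN and SKUT1 for each compared gene of chromosome 11, in order along the chromosome (gene rank, not distance), with the median of each window of about 25 genes as a line. The line is below 0 in 30 of the 31 windows. The 5 lowest of all 526 windows lie among the shaded last 7, but the shaded window from SIDT2 to TRAPPC4 is higher than some unshaded ones.

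Over the whole genome, neighbours above every other line came in 9 runs of 3 or more, and those below in 3 runs. GUCY1A3 and GUCY1B3 encode the paired subunits of the nitric oxide receptor of smooth muscle. GUCY1A3 was 3.12 FPKM in SKLMS1, against 0.0119 in RKN and 0.00426 in SKN, and listed as 0 in SKUT1, and GUCY1B3 was 37.98 FPKM in SKLMS1, against 0.496 in RKN, 1.37 in SKN and 0.335 in SKUT1. FOXQ1, FOXF2 and FOXC1, forkhead factors with EXOC2 beside them, were all above, with FOXC1 at 20.02 FPKM in SKLMS1, against 0.0365 in RKN, 5.18 in SKN and 6.47 in SKUT1. CTSD, a lysosomal protease, formed a run with IFITM10 and DUSP8 and was 808 FPKM in SKLMS1, against 58.1 in RKN, 165 in SKN and 269 in SKUT1. ACSM5, ACSM2A and ACSM3, fatty acid CoA ligases of liver and kidney, stood beside GPRC5B, with ACSM5 at 12.6 FPKM in SKLMS1 and listed as 0 in RKN, SKN and SKUT1.

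Some families showed little difference. Ribosomal proteins had 0 of 80 compared members above and 1 below every other line, with 1 at least 2-fold above and 3 2-fold or more below the mean of the others. Proteasome subunits had 0 of 39 above and 1 below. Aminoacyl-tRNA synthetases had 0 of 33 beyond every line either way. These counts are near or under the shares over all genes. Mitotic genes had a median difference of 0.62, and 11 of 59 were at least 2-fold above the mean (18.6%, beside 10.7% over all genes). Yet none stood above every other line, and the median was -0.02 with SKUT1 left out. BIRC5, survivin, was 126 FPKM in SKLMS1, against 67.9 in RKN, 74.5 in SKN and 18.9 in SKUT1, and CCNB1, cyclin B1, was 186 FPKM in SKLMS1, against 165 in RKN, 182 in SKN and 21.1 in SKUT1. Over the 93 lists, SKN was the line nearest to SKLMS1 in 54, RKN in 24 and SKUT1 in 15.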

How the data were processed

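The data are polyadenylated RNA levels of 4 untreated leiomyosarcoma lines, each with 1 library. Culture was in DMEM with serum, and, per the labels' protocols, TruSeq Stranded mRNA libraries were read single-end on a NextSeq 500. Per the submitters' processing notes, STAR, Cufflinks and hg19 were used. Not given in the sources used here were tool versions, annotation and strand setting. Deposited by the authors were FPKM values per gene symbol, used as given.

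The table held 23610 rows. In 28 the symbol had become a date number, 5 held spreadsheet errors, and both kinds were left out. Columns summed to 494047 in SKLMS1, 446954 in RKN, 538300 in SKN and 619584 in SKUT1. Genes that reached an FPKM of 1 in any line were compared as log2(FPKM + 1). With 1 library per line no test was run. Depth was estimated from the steps of low values in genes with 1 transcript in GENCODE release 29, assuming fragments of 200 bases. With these totals 63.7 to 64.4% of low values lay within 0.1 of a whole read, and as the totals were fitted to these values, this does not check them.

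The 93 gene lists, the line and the working markers were chosen with earlier results of these data known. Named genes are the 15 with the widest gap above and the 15 below every other line at an FPKM of 10 or more, up to 10 members of each list with the largest difference and up to 5 with the highest mean, members of runs of 3 or more neighbouring genes, and the 4 markers. Other named genes were chosen after their values were seen, and some genes are not reported here. The code was tested on simulated data. Python 3.11.15 was used. Alternatives were other pseudocounts, scalings, filters and fold rules, each other line left out, genes at 0 left out and, added after seeing the data, chromosome 11 left out.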

Additional observations from a re-analysis of the deposited data

How the results depend on the processing

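The counts over all genes moved with the pseudocount and the fold rule. With a pseudocount of 0.1 the genes below every other line numbered 435 and those below the mean of the others 2129. With a pseudocount of 5 the counts were 261 above and 67 below every other line, and 680 above and 563 below the mean. A 4-fold rule gave 182 and 42 against every line, and 471 and 330 against the mean. Leaving out 1 of the other lines gave 820 to 995 genes above and 478 to 614 below every remaining line, since fewer lines then set the range, and 1484 to 1724 above and 1316 to 1715 below the mean. With genes listed at 0 in any line left out, 359 stood above every other line. The other settings kept the 4 counts within 1.5 times, including all 3 scalings and, chosen after seeing the data, chromosome 11 left out, which gave 515 above and 168 below every other line.

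Of 198 genes named with values, 181 differed by at least 2-fold from the mean of the others, and 4 of them turned in direction under some setting, while PCDHGB5 came to 0. With the median of the others in place of the mean, HSPB6 was at 0.71, PCDHGB5 at 0, PTGS1 at 0.57 and SYNPO2 at 0.27. With 1 other line left out in turn, the difference ran from -3.47 to 0.86 for HSPB6, from -2.03 to 0 for PCDHGB5, from -2.11 to 0.67 for PTGS1 and from -1.98 to 0.29 for SYNPO2, the upper end being without SKUT1. It ran from -1.25 (without SKN) to 3.17 for ACTA2. No paired analysis was possible because each line has 1 library. With no replicate, the spread between cultures was not measured, and low genes are limited by depth.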

Other observations

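Single genes of transport and lipid synthesis also stood far from the other lines in SKLMS1. Of 30 compared amino acid transporters 3 stood above every other line (10.0%, beside 3.95% over all genes) and 1 below (3.33%, beside 1.68%), and the median difference was -0.33. SLC7A5, the large neutral amino acid carrier, was 281 FPKM in SKLMS1, against 61.2 in RKN, 23.1 in SKN and 114 in SKUT1, and SLC6A6, the taurine carrier, was 118 FPKM in SKLMS1, against 6.31 in RKN, 8.59 in SKN and 27.5 in SKUT1. SLC6A8, the creatine carrier, was 35.8 FPKM in SKLMS1, against 4.57 in RKN, 2.62 in SKN and 6.87 in SKUT1. Of 24 compared ABC transporters 3 stood above every other line (12.5%, beside 3.95% over all genes) and none below. Of the 24, 1 passed the filter only through SKLMS1, and 2 of the 3 reached FPKM 1 in another line. ABCB1, the multidrug pump, was 9.11 FPKM in SKLMS1, against 0.00872 in SKN and 0.00905 in SKUT1, and listed as 0 in RKN, and ABCA1, a cholesterol exporter, was 21.9 FPKM in SKLMS1, against 0.0115 in RKN, 6.54 in SKN and 0.622 in SKUT1. Of 45 compared genes of sterol and fatty acid synthesis, 3 stood above every other line (6.67%, beside 3.95% over all genes). Below every other line were 2 (4.44%, beside 1.68%), and the median difference was 0.18. SCD, a desaturase, was 165 FPKM in SKLMS1, against 46.8 in RKN, 27.5 in SKN and 25.2 in SKUT1, whereas ELOVL6, an elongase, was 1.0 FPKM in SKLMS1, against 7.03 in RKN, 5.59 in SKN and 14.5 in SKUT1. TFRC, the transferrin receptor, was 23.3 FPKM in SKLMS1, against 76.6 in RKN, 101 in SKN and 95.1 in SKUT1 and lowest in SKLMS1.

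Long noncoding genes with LINC symbols had 9 of 53 compared members (17.0%) above every other line and 0 below, beside 3.95% and 1.68% over all genes. This family is among many symbol families that were counted. How many of the 53 passed the filter only through SKLMS1 was not counted, so the count lends the family no support. QPRT, an enzyme of NAD synthesis, was 275 FPKM in SKLMS1, against 65.4 in RKN, 24.6 in SKN and 1.42 in SKUT1, and DAPK1, a death-associated kinase, was 67.7 FPKM in SKLMS1, against 0.0362 in RKN, 0.412 in SKN and 0.826 in SKUT1. DPYSL3, a protein of growing neurites, was 225 FPKM in SKLMS1, against 0.538 in RKN, 83.1 in SKN and 29.3 in SKUT1.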
